A study of Mus musculus with 9 samples.

Results

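Ribonucleases of the eosinophil-associated family and their relatives were followed through the bone marrow of lupus-prone NZBWF1 mice and of both parent strains. The genes are *Ear1*, *Ear2*, *Ear6*, *Ear10*, *Rnase2a*, *Rnase2b*, and *Rnase6*. They were chosen by symbol, 7 of the 31053 genes counted, and read in each class of marrow cells with the mouse as the unit. The family was put forward with results of these data already known, and which values led to it is not recorded. The strain differences given here are therefore a description of these genes beside all genes tested, and their p-values are not evidence independent of that choice.

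The eosinophil-associated ribonucleases are small secreted proteins of the RNase A superfamily, which cut RNA with a conserved catalytic histidine and lysine core held by disulfide bonds. Rodents carry many recently duplicated copies of them, and the name comes from the granules of eosinophils, although monocytes, macrophages, and other myeloid cells transcribe some copies as well. In humans the relatives are eosinophil-derived neurotoxin and eosinophil cationic protein. RNase 6, from a more distant branch, is an antimicrobial ribonuclease of myeloid cells. Inside cells, ribonucleases of this superfamily are bound and blocked by the ribonuclease inhibitor encoded by *Rnh1*. Some RNases also digest RNA that reaches endosomes, where Toll-like receptors read its fragments.

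The marrow was flushed from the femurs of 3 female mice of each strain, namely NZB, from New Zealand Black stock, its white counterpart NZW, and their F1 hybrid NZBWF1, all between 9 and 10 weeks of age. NZBWF1 females develop a lupus-like disease later in life, and the age was set before overt disease. No mouse was treated, and no strain without New Zealand ancestry was included. Red cells were lysed before 1 droplet library was made per mouse with a kit that tags the 3' ends of transcripts, so each tagged molecule counts as 1 unique molecular identifier (UMI).

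After limits on UMIs, genes, and mitochondrial UMIs and the removal of doublets, 36525 cells remained, between 2359 and 5217 per mouse, with 2108 to 2458 UMIs in the median cell. Cells were clustered without the ribonuclease genes, and clusters were named from marker lists with the ending "-like". In 14 of the 15 classes, each marker was more than 2-fold above the other cells, and in the remaining class, stem-cell-like cells, 13 of 16 markers were. The same markers had named the clusters, so this is no independent check. The macrophage-like cluster of 410 cells also held the neutrophil marker *Ltf* at 9130 CPM (parts per 1000000 UMIs), compared with 24.8 in the monocyte cluster of 1973 cells. That class is therefore not free of neutrophil RNA. A level is the part of a gene in all UMIs of the class in a mouse, in counts per 1000000 (CPM). It is not scaled by transcript length, so levels are compared between cells and strains and not between genes. Barcodes with fewer than 100 UMIs, which hold free RNA, carried 0.0699% to 0.126% of the UMIs of the median cell. Their profile held *Ear2* at 8.88 to 59.1 and *Rnase6* at 55.1 to 102 CPM.

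All 7 genes lie on chromosome 14 (GRCm38, GENCODE vM21, protein-coding) in 3 groups. *Ear1* (43818765 to 43875517, minus strand), *Ear10* (43922720 to 43923559, minus strand), and *Ear2* (44102654 to 44103534, plus strand) form the first. *Rnase6* (51123908 to 51132187, plus strand), *Rnase2b* (51162260 to 51163018, plus strand), and *Rnase2a* (51255262 to 51256112, minus strand) form the second, and *Ear6* (51853699 to 51854643, plus strand) stands alone. The copies of the first group are near-identical. The longest transcripts of *Ear1* and *Ear2* matched at 96.1% of aligned bases, and *Ear10* matched them at 87.9% and 89%. Of the 50-base stretches in the last 500 bases of the transcripts, where this kit reads, 57.1% of those of *Ear1*, 38.1% of those of *Ear2*, and 41.8% of those of *Ear10* also occur in another gene of the family. Over 90 bases these shares were 26.5%, 9.73%, and 29.6%. *Ear6* shared 1.79% at 50 bases, and *Rnase2a*, *Rnase2b*, and *Rnase6* shared 0%. Counts of *Ear1*, *Ear2*, and *Ear10* are uncertain where reads could be split or lost between these copies. Their results in monocyte-like and neutrophil-like cells are therefore also given for the summed family. That sum also holds *Rnase2a*, which shares 0% of its stretches with other genes. The sum does not bring back reads that match several copies and were not counted. Strain differences in the sequence or number of these copies could also move the counts of a strain, and this was not measured.

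The 250 bases ahead of 1 RefSeq transcript start are shown for each of the 4 genes that could be tested, since *Ear1* and *Ear2* moved together and the others did not follow them in every class. Where RefSeq lists several starts, as for *Rnase6*, the first listed was used, and for *Ear1* and *Rnase6* the window lies inside the longer gene span given above. They come from RefSeq on GRCm38.p6, 5' to 3' on the strand of the gene. Capitals mark a C/EBP motif (TTGCNNAA, either strand) and ETS motifs (AGGAAG, either strand). The windows are chr14:43819640-43819889 (minus strand) for *Ear1*, chr14:44102404-44102653 (plus strand) for *Ear2*, chr14:51256113-51256362 (minus strand) for *Rnase2a*, and chr14:51128814-51129063 (plus strand) for *Rnase6*.
Ear1: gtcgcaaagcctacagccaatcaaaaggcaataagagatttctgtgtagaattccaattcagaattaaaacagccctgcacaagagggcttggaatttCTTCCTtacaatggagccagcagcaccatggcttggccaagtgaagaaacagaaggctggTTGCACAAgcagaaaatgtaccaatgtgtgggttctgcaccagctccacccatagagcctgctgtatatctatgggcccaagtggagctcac
Ear2: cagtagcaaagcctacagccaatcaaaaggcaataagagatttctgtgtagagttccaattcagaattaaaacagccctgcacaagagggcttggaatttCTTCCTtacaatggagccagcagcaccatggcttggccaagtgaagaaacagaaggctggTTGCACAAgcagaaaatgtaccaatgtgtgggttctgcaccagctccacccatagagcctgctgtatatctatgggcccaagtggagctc
Rnase2a: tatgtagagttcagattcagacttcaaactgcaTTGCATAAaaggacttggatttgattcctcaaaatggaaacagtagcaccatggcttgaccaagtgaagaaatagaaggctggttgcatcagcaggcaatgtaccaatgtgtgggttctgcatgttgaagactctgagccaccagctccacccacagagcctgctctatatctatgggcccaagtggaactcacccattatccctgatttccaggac
Rnase6: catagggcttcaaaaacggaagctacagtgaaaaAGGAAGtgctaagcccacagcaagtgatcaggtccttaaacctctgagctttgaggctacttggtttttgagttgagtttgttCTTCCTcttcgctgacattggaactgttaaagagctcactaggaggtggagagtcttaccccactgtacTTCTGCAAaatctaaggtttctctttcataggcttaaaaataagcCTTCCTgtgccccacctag
The windows of *Ear1* and *Ear2* were 97.6% identical, and both held 1 C/EBP motif and 1 ETS motif at nearly the same distance from the start. *Rnase2a* was 61.6% identical to *Ear1* in this window and held 1 C/EBP motif further upstream and 0 ETS motifs. *Rnase6* was 48.6% identical to *Ear1* and held 1 C/EBP and 3 ETS motifs. Among 32851 windows of the same length in RefSeq, 9.56% held the C/EBP letters and 29.5% the ETS letters, on either strand. A GATA motif (AGATAA, in 9.99% of windows) was in 0 of the 7, and the interferon response letters GAAA followed by GAAA after 2 bases (in 2.98%) were in *Rnase6* alone. The CCAAT letters were in all 7, compared with 33.8% of windows. These are matches of letters and not measured sites.

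The family was read mostly in monocytes, apart from *Rnase6*. In the analysed cells, *Ear2* had 5031 UMIs in 3178 cells, *Ear1* 2000 in 1610, *Rnase2a* 1410 in 1176, and *Rnase6* 12105 in 5860. *Ear10* had 67 UMIs, *Ear6* 16, and *Rnase2b* 2. Monocyte-like cells (5099 cells) held 1603 of the *Ear1* UMIs (80.2%), 3960 of those of *Ear2* (78.7%), and 51 of those of *Ear10*. Neutrophil-like cells, with 11614 cells, held 10.8% and 11.7% of the *Ear1* and *Ear2* UMIs, and nonclassical-monocyte-like cells, with 440 cells, held 4.95% and 4.77%. *Rnase2a* UMIs lay in monocyte-like (903), neutrophil-like (378), and granulocyte-monocyte-precursor-like cells (105). *Rnase6* UMIs lay mainly in plasmacytoid-dendritic-cell-like cells (6944), followed by monocyte-like (1833), B-cell-like (1034), and conventional-dendritic-cell-like cells (414). Lymphoid cells held few UMIs of the others: *Ear2* had 19 in B-cell-like and 11 in T-cell-like cells.

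**Figure D1:**
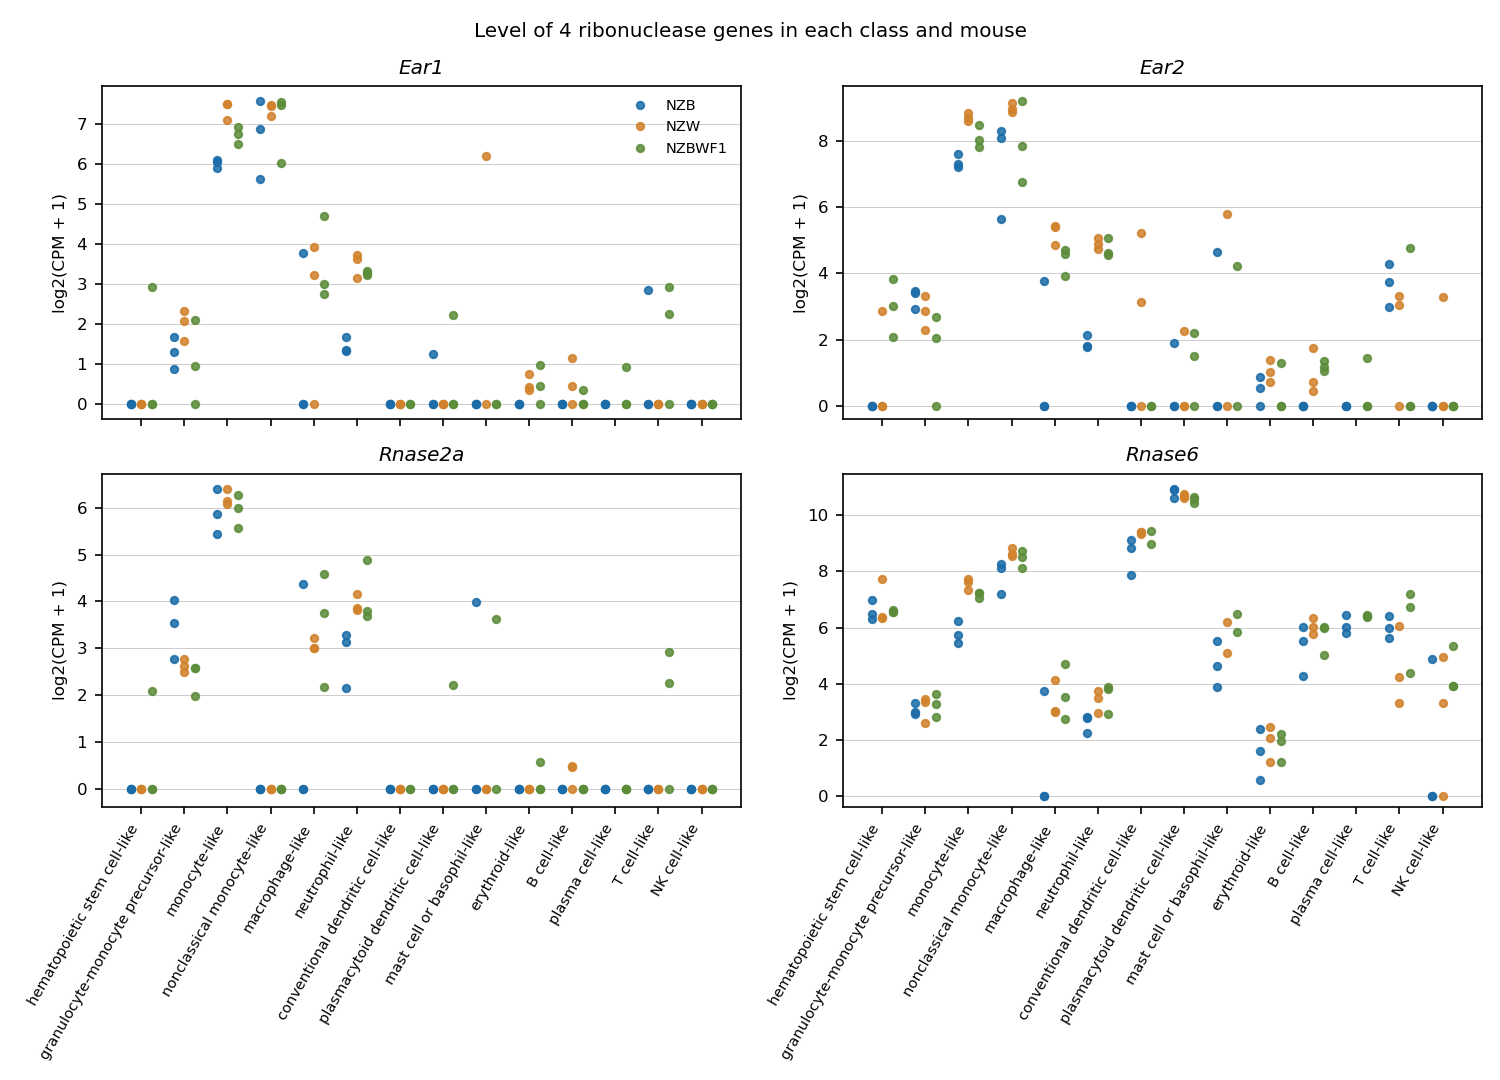
Level of *Ear1*, *Ear2*, *Rnase2a*, and *Rnase6* in each class, as log2(CPM + 1), with 1 point per mouse that has at least 10 cells of the class, coloured by strain. *Ear1* and *Ear2* are highest in monocyte-like and nonclassical-monocyte-like cells, *Rnase2a* is highest in monocyte-like cells and at 0 in nonclassical-monocyte-like cells, and *Rnase6* is highest in plasmacytoid-dendritic-cell-like cells (1381 to 1950 CPM).

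*Ear1* and *Ear2* in monocyte-like cells ranked the strains as NZB, NZBWF1, NZW, from low to high. *Ear1* stood at 58.7, 67.7, and 65.1 CPM in the 3 NZB mice, at 89.6, 107, and 122 in NZBWF1, and at 182.5, 180, and 136 in NZW. No mouse of one strain overlapped another strain. *Ear2* stood at 192, 148, and 157 in NZB, at 352, 222, and 257 in NZBWF1, and at 410, 454, and 386 in NZW, again without overlap. The share of all genes without overlap of the strains was not counted, here or for the other members. Means were 63.8 ± 4.61, 106 ± 16.1, and 166 ± 26.0 for *Ear1* and 166 ± 23.2, 277 ± 67.2, and 417 ± 34.6 for *Ear2* in the same order of strains (SD, n = 3 mice each).

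NZB monocyte-like cells held less of both transcripts than NZW. The log2 fold change was -1.34 ± 0.13 (SE) for *Ear1* (adjusted p = 3.52e-10) and -1.32 ± 0.13 for *Ear2* (adjusted p = 8.20e-08, edgeR quasi-likelihood with Benjamini-Hochberg adjustment over 8906 genes). In this comparison 25.1% of all genes tested in the class were called at an adjusted p of 0.05, so a call in itself is common. NZBWF1 lay above NZB, by 0.70 ± 0.14 for *Ear1* and 0.67 ± 0.13 for *Ear2* (adjusted p = 0.000432 and 0.00132), where 15.4% of genes were called. It lay below NZW, by -0.64 ± 0.12 and -0.65 ± 0.13 (adjusted p = 0.00169 and 0.00555), where 1.27% of genes were called. Against the mean of the log2 levels of both parents, called the parental log mean here, the hybrid differed by 0.03 ± 0.11 for *Ear1* and 0.01 ± 0.11 for *Ear2* (95% intervals -0.19 to 0.26 and -0.21 to 0.23), and neither was called. Summing *Ear1*, *Ear2*, *Ear6*, *Ear10*, *Rnase2a*, and *Rnase2b* to 1 feature gave -1.17 ± 0.11 for NZB against NZW, 0.57 ± 0.11 for NZBWF1 against NZB, and -0.60 ± 0.11 for NZBWF1 against NZW. The call of *Ear2* below NZW in the hybrid was lost without NZBWF1 replicate 3 (-0.61) and when cells were gated one at a time by markers (-0.62).

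The strains differed in which monocyte clusters they filled, so levels were also read within clusters. Of the 4 monocyte clusters with cells of at least 8 mice, the one lowest in *Elane* (1973 cells) held 82 NZB, 1014 NZW, and 877 NZBWF1 cells. The one highest in *Elane* (1437 cells) held 474, 512, and 451. In the first, pooled *Ear2* was 157, 541, and 290 CPM in NZB, NZW, and NZBWF1, and in the second it was 157, 317, and 239. *Ear1* was 50.7, 190, and 136 in the first and 61.7, 130, and 86.9 in the second. For both genes, NZB was lowest and NZW highest in 4 of these 4 clusters, which hold 4850 of the cells. The 2 clusters not yet named here, with 901 and 539 cells, held 447 and 394 NZB cells.

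The difference also showed in the share of cells with a UMI. With each cell thinned to 1000 UMIs, *Ear2* was found in 16.0% ± 1.89 of NZB, 32.8% ± 1.62 of NZW, and 24.3% ± 5.31 of NZBWF1 monocyte-like cells (SD, n = 3). *Ear1* was found in 6.05% ± 1.10, 15.7% ± 1.34, and 12.0% ± 0.736. The strains did not overlap in either gene, and the exact two-sided permutation test gave p = 0.1 for each pair of strains, the smallest value that 3 against 3 mice allow. In T-cell-like cells, which have a median of 1361 UMIs, the mean share for *Ear2* was between 0.366% and 0.556% and for *Ear1* it was 0%, compared with a median of 2293 UMIs in monocyte-like cells.

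*Ear1* and *Ear2* were found together more often than if spread independently over the cells of each mouse. Of 5099 thinned monocyte-like cells, 600 held *Ear1*, 1248 held *Ear2*, and 232 held both, where independence within mice gives 161. That is 38.7% of the *Ear1* cells and 18.6% of the *Ear2* cells. *Ear2* and *Rnase2a* came together in 69 cells (65 if independent), and *Rnase2a* and *Rnase6* in 34 (37.5). These are counts of cells and carry no test, and reads of *Ear1* and *Ear2* can be mistaken for each other. The part of *Ear1* in the summed *Ear1* and *Ear2* UMIs was 28% ± 4.13 for NZB, 28.4% ± 2.34 for NZW, and 28.3% ± 6.96 for NZBWF1 monocyte-like cells (SD, n = 3), so the ratio of both transcripts was much the same in the 3 strains.

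**Figure D2:**
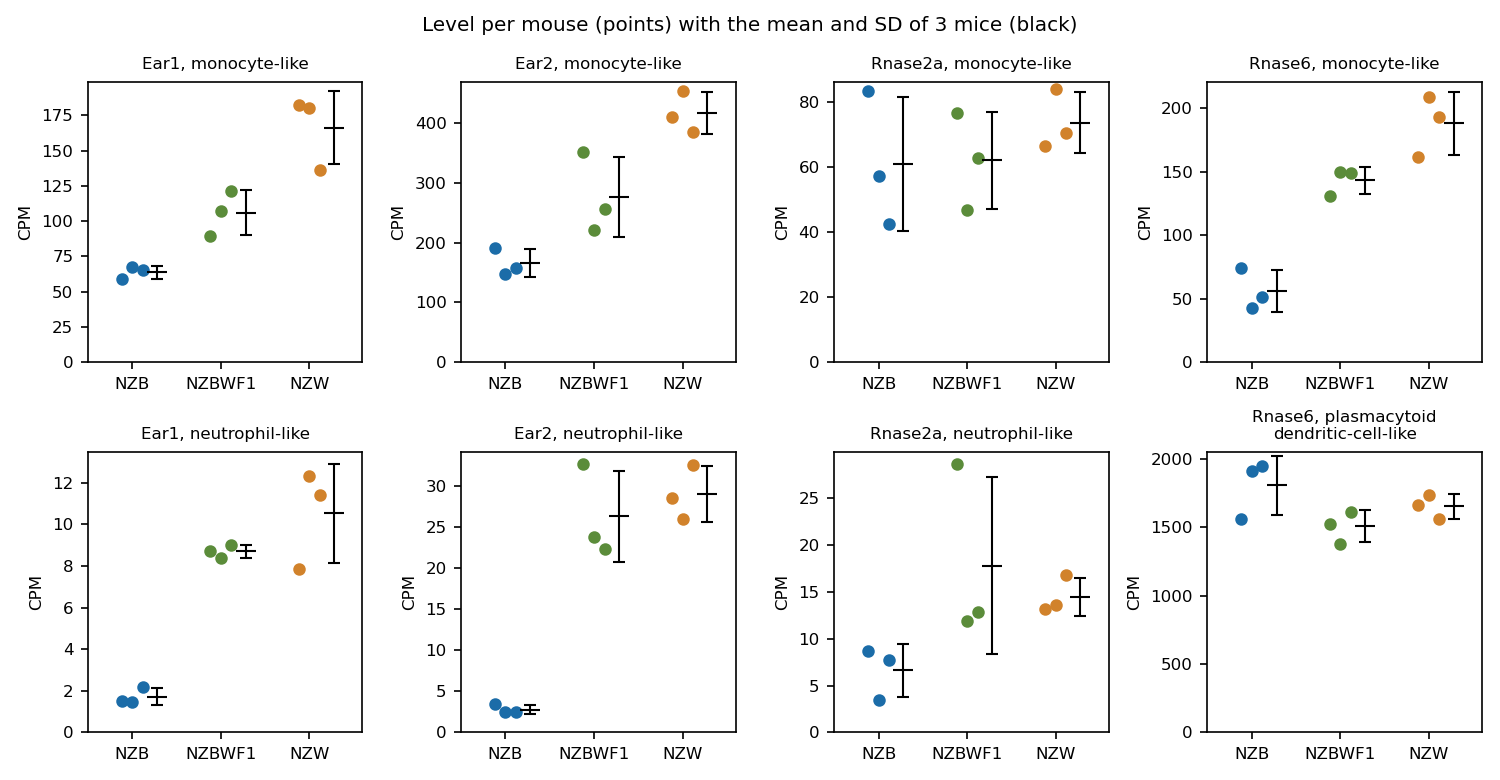
CPM of the class in each mouse (points), with the mean and SD of the 3 mice of a strain (black), for *Ear1*, *Ear2*, *Rnase2a*, and *Rnase6* in 8 pairings of gene and class. Each axis starts at 0. In monocyte-like cells NZBWF1 stands between its parents for *Ear1* and *Ear2* (means of 106 and 277), and over all neutrophil-like cells it stands beside NZW.

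Neutrophil-like cells carried far less *Ear1* and *Ear2*, and over the whole class the hybrid stood beside NZW. *Ear2* was 3.41, 2.45, and 2.49 CPM in NZB, 28.6, 25.9, and 32.6 in NZW, and 32.6, 23.8, and 22.4 in NZBWF1. All NZB mice were below all others, and NZW and NZBWF1 overlapped. *Ear1* was 1.51, 1.47, and 2.18 in NZB, 7.83, 12.3, and 11.4 in NZW, and 8.70, 8.38, and 9.00 in NZBWF1. The NZB values rest on 27 UMIs of *Ear2* and 17 of *Ear1* over 3 mice. In the 3384 cells with a UMI of *Mki67* or *Top2a*, the hybrid lay between its parents. Mean *Ear2* was 1.23, 14.3, and 22.5 CPM there and mean *Ear1* 1.685, 4.915, and 9.03 in NZB, NZBWF1, and NZW. In the 8230 cells without such a UMI, *Ear2* was 3.68, 33.65, and 33.8, and *Ear1* was 1.81, 11.1, and 11.95. This split carries no test.

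Fitted log2 fold changes of NZB against NZW were -3.20 ± 0.24 for *Ear2* and -2.38 ± 0.31 for *Ear1* (adjusted p = 7.22e-09 and 1.49e-05, edgeR), where 13% of the 8342 genes tested were called. Against NZB, the hybrid was higher by 3.02 ± 0.25 and 2.12 ± 0.32 (adjusted p = 1.07e-07 and 0.000337), where 4.32% were called. Against NZW it differed by -0.18 ± 0.17 and -0.27 ± 0.23, where 1.29% of genes were called and neither of these was, with 95% intervals of -0.51 to 0.15 and -0.71 to 0.18. Over the alternatives these differences went as low as -0.52 and -0.86, beyond the intervals, and stayed uncalled. Against the parental log mean, *Ear2* was higher in NZBWF1 by 1.42 ± 0.18 (adjusted p = 0.000117), where 0.372% of genes were called. *Ear1* was at 0.93 ± 0.24 (adjusted p = 0.147), and between 0.42 and 1.02 over the alternatives. On a linear scale, the hybrid mean of *Ear2* was 26.3 against a parental mean of 15.9, a ratio of 1.65, with 3 of 3 mice above it. Keeping only cells with at least 2000 UMIs lowered the log2 difference of *Ear2* from the parental log mean to 0.63 and ended the call, and gave 1.78 for NZBWF1 against NZB and -2.31 for NZB against NZW. The summed family gave 0.99 ± 0.17 (adjusted p = 0.00633), 2.05 ± 0.22, and -2.12 ± 0.22 in the same comparisons. In NZB neutrophil-like cells that sum held 62 UMIs of *Rnase2a* beside 27 of *Ear2* and 17 of *Ear1*. It is mostly another gene there and tells little about *Ear1* and *Ear2*. *Ear2* had 9, 10, and 8 UMIs in the NZB mice and *Ear1* had 4, 6, and 7. Both passed the filter through the other strains. Each call and log difference of either gene that involves NZB therefore depends on counts near the background. Their sizes are no measured levels.

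Monocyte-like and neutrophil-like cells of the same mice were set against each other in 1 fit with the mouse as a block. The *Ear2* values rest on the 27 UMIs of NZB neutrophil-like cells, which were not separated from background, so their sizes are fitted values and not measured differences. The fitted NZB against NZW difference was 1.85 ± 0.26 (log2) smaller in size in monocyte-like cells (adjusted p = 2.68e-05, edgeR), where 7.78% of 9832 genes were called. The difference of the hybrid from the parental log mean was lower in monocyte-like than in neutrophil-like cells by 1.39, as -1.39 ± 0.19 (adjusted p = 0.000145), where 0.0712% of genes were called. With at least 2000 UMIs per cell these became 1.19 and -0.66, and neither was called. *Ear1* gave 1.04 ± 0.36 (adjusted p = 0.0759) and -0.89 ± 0.26 (adjusted p = 0.456) in the same comparisons, and neither was called. As a share of the monocyte level in the same mouse, the neutrophil level of *Ear2* was 1.67% ± 0.0974 for NZB, 7.03% ± 1.37 for NZW, and 9.56% ± 1.06 for NZBWF1 (SD, n = 3).

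At a depth of 1000 UMIs, *Ear2* was found in 0.242% of NZB, 3.20% of NZW, and 2.96% of NZBWF1 neutrophil-like cells. The NZB share lay below the mean share in NZB T-cell-like cells (0.556%, from 1 of the 3 mice) and above that in NZB B-cell-like and NK-cell-like cells (0%), so it was not separated from background here. *Ear1* was found in 0.111%, 1.25%, and 1.01%. NZB was the lowest strain for *Ear2* in 7 of the 7 neutrophil clusters with cells of at least 8 mice. In those clusters the monocyte marker *F13a1*, the A subunit of a clotting factor, stood at 0.663 to 3.90 CPM, compared with 969 to 1634 in the 4 monocyte clusters. *Csf1r*, the receptor for monocyte growth factors, stood at 0.332 to 44.95 compared with 133 to 312. With the free RNA profile subtracted, the log2 fold change of *Ear2* was -3.21 for NZB against NZW and 1.42 for the hybrid against the parental log mean. The free RNA taken off was only 0.0699% to 0.126% of the UMIs of the median cell. These values could therefore hardly move, and the subtraction does not bear on background. The part of RNA from monocytes in the neutrophil levels was not tested.

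Nonclassical-monocyte-like cells, the patrolling kind marked by *Treml4* and *Ace*, held *Ear1* and *Ear2* at levels like those of the monocyte-like cells. *Ear2* was 271, 48.8, and 314 CPM in NZB, 563, 465, and 491 in NZW, and 584, 107, and 230 in NZBWF1. NZB and NZBWF1 overlapped, and NZB replicate 2 rests on 14 cells and 1 UMI. The log2 fold change of NZB against NZW was -0.99 ± 0.54 for *Ear2* and -0.29 ± 0.42 for *Ear1*, and neither was called, with 95% intervals of -2.05 to 0.06 and -1.11 to 0.53. In precursor-like cells, *Ear2* lay between 0 and 10.2 CPM. There the hybrid was at -1.32 ± 0.43 against NZB in the fit (adjusted p = 0.0971, edgeR, not called), and between -1.89 and -0.38 over the alternatives. The hybrid value rests on 17 UMIs, with 0 in replicate 1. Mean levels were 8.83, 6.39, and 2.88 CPM in NZB, NZW, and NZBWF1, compared with 12.65, 5.44, and 8.70 in T-cell-like cells. *Ear2* in precursor-like cells was therefore not separated from background, and the sign of this difference is not read as a result.

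*Ear10*, a close copy of *Ear1*, was rare, and passed the filter on low counts in 0 classes. In monocyte-like cells it had 3 UMIs in NZB, 35 in NZW, and 13 in NZBWF1. By mouse, the level was 0, 0.846, and 0.835 CPM in NZB, 7.30, 9.89, and 3.88 in NZW, and 2.6, 3.02, and 3.17 in NZBWF1. These rest on 0, 2, and 1 UMIs in NZB, 10, 18, and 7 in NZW, and 2, 6, and 5 in NZBWF1. The order of the strains by mouse thus hangs on few UMIs. The NZB total of 3 UMIs is at the floor, so no size of a ratio to NZB is read. The exact 95% interval of the pooled ratio was 3.46 to 55.8 for NZW to NZB and 1.29 to 25.7 for NZBWF1 to NZB. These intervals cover counting error only. Neutrophil-like cells held 0, 5, and 3 UMIs in NZB, NZW, and NZBWF1. Of the stretches of *Ear10* that the kit can read, 41.8% at 50 bases also occur in another copy, so its counts and those of *Ear1* and *Ear2* are not independent.

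*Ear6* and *Rnase2b* were nearly absent from the marrow cells analysed. *Ear6* had 16 UMIs in 11 cells, of which 6 fell in 1 erythroid-like cell of an NZB mouse. *Rnase2b* had 2 UMIs in 2 cells. Both passed the filter in 0 classes, and neither had more than 3 UMIs in the monocyte-like cells of any strain.

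Barcodes with transcripts of eosinophil granules were few. Whether eosinophils were rare in the marrow or were missed by this gate or by the droplets was not tested, and other eosinophil markers were not part of it. Barcodes with at least 3 UMIs from at least 2 of the eosinophil granule genes *Epx*, *Prg2*, and *Prg3*, which encode eosinophil peroxidase and the major basic proteins, numbered 19 over all 9 libraries, 10 in NZB, 3 in NZW, and 6 in NZBWF1. Of these, 10 were among the analysed cells, 6 had been set aside by the limits or as doublets, and 3 lay outside the filtered barcodes. The analysed ones had been named precursor-like, mast-cell-or-basophil-like, plasma-cell-like, or erythroid-like. The 19 barcodes held 10 *Ear6* UMIs, all in 2 barcodes with 6 and 4. They held 5 *Ear2* UMIs, 1 of *Ear1*, 4 of *Rnase6*, and 0 each of *Ear10*, *Rnase2a*, and *Rnase2b*. The *Ear6* barcode of NZB replicate 1 had 15129 UMIs with 18 of *Epx* and 38 of *Prg2*, and that of NZW replicate 2 had 3030 UMIs with 4 and 68. In monocyte-like cells, *Epx*, *Prg2*, and *Prg3* were at 0, so the *Ear1* and *Ear2* UMIs there came with no UMI of these granule genes.

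*Rnase2a* followed another course than *Ear1* and *Ear2*, and its pooled level was lowest in the *Elane*-low of the 4 monocyte clusters with cells of at least 8 mice. In the monocyte cluster highest in *Elane*, the neutrophil elastase gene of early myeloid cells, it stood at 92.7 CPM. It was 55.7 and 61.9 in the clusters between, 32.3 in the *Elane*-low cluster, and 0 in nonclassical-monocyte-like cells. The proliferation gene *Mki67* stood at 602, 1190, 288, and 31.5 CPM in the same 4 monocyte clusters, so *Rnase2a* did not follow it from cluster to cluster. These levels are pooled over strains that fill the clusters unequally. Within strains, *Rnase2a* went from 84.9 in the *Elane*-high to 30.4 in the *Elane*-low cluster in NZB, from 110 to 40.2 in NZW, and from 82.5 to 23.7 in NZBWF1. In the clusters between, with 901 and 539 cells, it was 34.05 and 55.65 in NZB, 77.8 and 60.9 in NZW, and 79.2 and 98.6 in NZBWF1, so in the hybrid the *Elane*-high cluster was not the highest. *Rnase6* went from 42.95 to 65.9, from 133 to 254, and from 97.4 to 203 in the same strains. *Ear2* was 157 in both clusters in NZB, and went from 317 to 541 in NZW and from 239 to 290 in NZBWF1. In precursor-like clusters *Rnase2a* was 14.05 in the one with the most *Csf1r* and *F13a1*, and 0.815 and 0.607 in those higher in *Elane* or *Camp*. A count of 0 among 440 nonclassical-monocyte-like cells allows up to 18.8, 11.8, and 11.95 CPM in NZB, NZW, and NZBWF1 (3 UMIs over a strain).

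**Figure D3:**
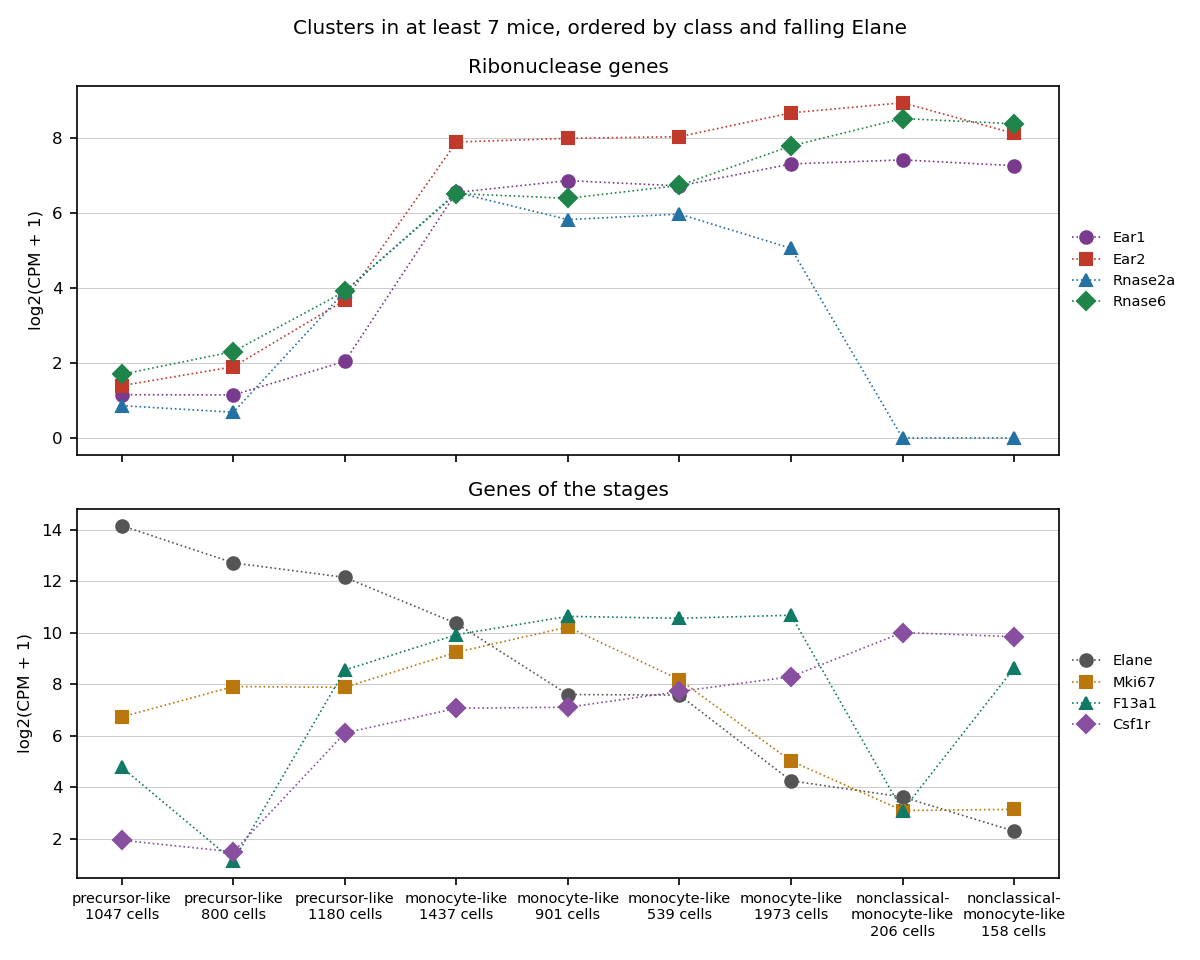
Level of 4 ribonuclease genes (above) and of *Elane*, *Mki67*, *F13a1*, and *Csf1r* (below) as log2(CPM + 1), pooled over mice, in the precursor-like, monocyte-like, and nonclassical-monocyte-like clusters found in at least 7 mice, with the number of cells. Within each class the clusters are ordered by falling *Elane*. *Rnase2a* falls from 92.7 CPM in the first monocyte-like cluster to 0 in both nonclassical clusters, while the other 3 genes are above 0 in each of these monocyte-like and nonclassical clusters.

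Over all monocyte-like cells, *Rnase2a* was higher where a proliferation marker was read. Cells with a UMI of *Mki67* or *Top2a* (2469 cells) held *Rnase2a* at 83.4 ± 22.0 CPM and those without (2630 cells) at 36.8 ± 10.9 (SD over 9 mice), a ratio of 2.27. *Rnase6* went the opposite way, 95.3 ± 39.1 with and 180 ± 85.7 without, a ratio of 0.531. *Ear2* was 263 and 328 and *Ear1* was 110 and 115, ratios of 0.802 and 0.954. Whether a cell shows such a UMI depends on its depth as well, and this comparison within the same mice carries no test.

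Between strains, *Rnase2a* in monocyte-like cells was 83.2, 57.1, and 42.6 CPM in NZB, 66.4, 84.1, and 70.4 in NZW, and 76.6, 46.8, and 62.7 in NZBWF1. All 3 strains overlapped. The log2 fold change of NZB against NZW was -0.27 ± 0.20 (95% interval -0.66 to 0.11, adjusted p = 0.352), and that of the hybrid against the parental log mean was -0.21 ± 0.18 (-0.56 to 0.15). Without NZB replicate 1, NZB was lower than NZW by -0.50 and this passed the threshold. In neutrophil-like cells, *Rnase2a* was 8.71, 3.44, and 7.77 in NZB, 13.1, 13.6, and 16.8 in NZW, and 28.7, 11.9, and 12.8 in NZBWF1. The NZB mice were below all others, with log2 fold changes of -0.99 ± 0.36 against NZW (adjusted p = 0.0908) and 1.20 ± 0.36 for NZBWF1 against NZB (adjusted p = 0.0804). Neither was called, although 5 alternatives placed NZBWF1 against NZB under the threshold and 4 placed NZB against NZW under it. In precursor-like cells, the hybrid stood at -1.15 ± 0.38 against NZB (adjusted p = 0.0971) and NZB at 0.92 ± 0.36 against NZW (adjusted p = 0.0907), again not called. Over the alternatives these lay between -1.38 and -0.62 and between 0.18 and 1.15. Each stayed uncalled in 7 of 8 fits with 1 mouse left out.

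*Rnase6* was at its highest in plasmacytoid-dendritic-cell-like cells, the interferon producers of the marrow, where the strains overlapped. It stood at 1559, 1909, and 1950 CPM in NZB, 1664, 1739, and 1561 in NZW, and 1526, 1381, and 1614 in NZBWF1, with overlap of all 3 strains. At 1000 UMIs per cell, 79.4%, 78.6%, and 74.8% of these cells held a UMI in NZB, NZW, and NZBWF1, and the exact permutation p was between 0.2 and 0.8. The log2 fold change of NZB against NZW was 0.15 ± 0.09 (95% interval -0.03 to 0.34, adjusted p = 0.435), where 7.24% of genes were called. The hybrid stood at -0.28 ± 0.09 against NZB (adjusted p = 0.0847) and -0.20 ± 0.08 against the parental log mean (adjusted p = 0.626), and neither was called. On a linear scale the hybrid mean was 0.871 of the parental mean, with 0 of 3 mice above it. Within the class, *Rnase6* was 1977 and 1602 in the clusters of 1193 and 973 cells and 596 in the cluster of 224 cells with the most *Mki67*.

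In monocyte-like cells the same gene differed widely. *Rnase6* was 74.5, 42.7, and 51.8 CPM in NZB, 161, 209, and 194 in NZW, and 131, 150, and 149 in NZBWF1, with no overlap. NZB was lower than NZW by a log2 fold change of -1.78 ± 0.15 (adjusted p = 2.33e-10), and NZBWF1 was higher than NZB by 1.38 ± 0.15 (adjusted p = 2.35e-07). Against NZW the hybrid was at -0.40 ± 0.13 (adjusted p = 0.17, not called). Against the parental log mean it was higher by 0.49 ± 0.12 (adjusted p = 0.031), where 1.53% of genes were called. On a linear scale the hybrid mean was 143 against a parental mean of 122, a ratio of 1.17, with 3 of 3 mice above it. That call against the parental mean was lost with DESeq2, with the per-cell marker gate, with at least 2000 UMIs, and without any 1 of 6 of the mice, with values between 0.39 and 0.51. NZB was the lowest and NZW the highest strain in 4 of the 4 large monocyte clusters, at 65.9, 254, and 203 in the *Elane*-low cluster for NZB, NZW, and NZBWF1.

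The 2 classes were compared in 1 fit within mice. Its low side is the NZB monocyte-like level, which lay near that of NZB B-cell-like and T-cell-like cells. The NZB against NZW difference of *Rnase6* was lower in monocyte-like than in plasmacytoid-dendritic-cell-like cells by -1.95 ± 0.16 (log2, adjusted p = 3.30e-23, edgeR), where 6.37% of 8655 genes were called. The difference of the hybrid from the parental log mean was higher in monocyte-like cells by 0.69 ± 0.13 (adjusted p = 0.000375), where 0.324% were called. The second call was lost in 6 alternatives, and with at least 2000 UMIs it fell to 0.335.

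Conventional-dendritic-cell-like cells held *Rnase6* at 452, 232, and 552 CPM in NZB, 648, 672, and 683 in NZW, and 506 and 687 in 2 NZBWF1 mice, the third having 3 cells of this class. NZB was lower than NZW by -0.78 ± 0.23 (adjusted p = 0.0277), where 7.99% of 1339 genes were called. This rests on 59 UMIs in 55 NZB cells. It was lost without any of NZB replicates 1 and 2 and NZW replicates 2 and 3, with DESeq2, at Leiden resolution 1, and without removal of doublets, and it became 0.38 when cells were gated by markers one at a time. The class is mixed. Its cluster with the most cells (105 of 304) was led by genes such as *Runx2*, *Bst2*, and *Upb1* that also led a plasmacytoid cluster. *Siglech*, a plasmacytoid marker, stood at 231 CPM there. Of the markers of the class, *Clec9a* and *Cd209a* stood at 78.2 and 37.2, compared with 88.0 and 95.6 in the plasmacytoid cluster of 1193 cells. *Xcr1*, another marker of the class, was at 0, as it was in the clusters of 63 and 76 cells. In the cluster of 105 cells pooled *Rnase6* was 353.5 CPM in NZB and 793 in NZW. In a cluster led by *Cd7* and *Fcgrt* (63 cells) it was 313.5 and 666.5, and in the *Xcr1*-positive cluster (60 cells) 659.5 and 664. The remaining cluster of 76 cells held 3 NZB cells. These pooled levels carry no test, and the part of the mix of clusters in the call was not tested. Nonclassical-monocyte-like cells held *Rnase6* at 303, 147, and 275 in NZB, 376, 393, and 450 in NZW, and 419, 279, and 362 in NZBWF1, with a log2 fold change of -0.63 ± 0.29 for NZB against NZW (adjusted p = 0.307). In stem-cell-like cells it lay between 78.6 and 210, a class in which a cluster led by *Ly6d* and *Flt3* (275 of 618 cells) held 169 CPM with *Siglech* at 164, and the clusters led by *Hlf* or *Cd34* held 55.9 and 14.85. It lay in B-cell-like cells between 18.4 and 80.7, and in T-cell-like cells between 8.90 and 144, with no call between strains in these classes. In precursor-like and neutrophil-like cells, at 3.68 to 13.6, its thinned share (0.449% to 1.33%) was below that in T-cell-like cells of the same strain (1.30% to 4.26%). The share in NK-cell-like cells was 0.392%, 0%, and 0.976% in NZB, NZW, and NZBWF1, below the share in neutrophil-like cells, and these low shares were not separated from background.

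**Figure D4:**
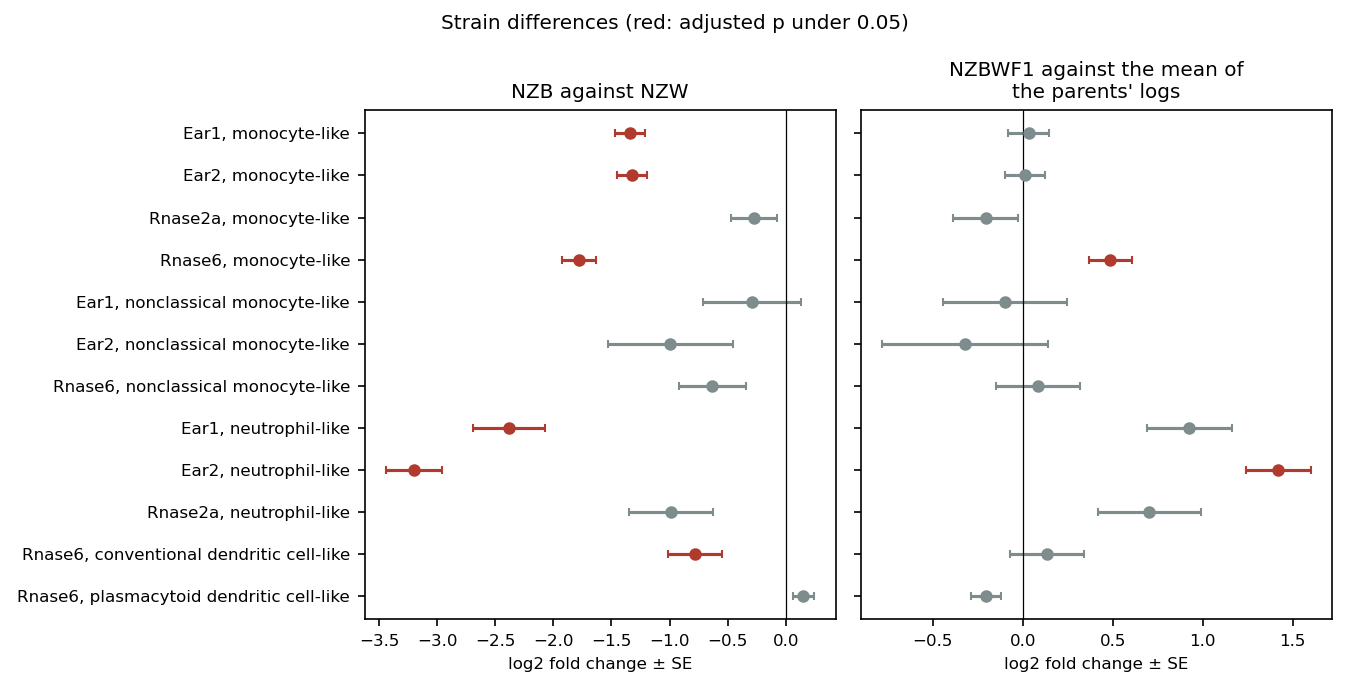
Log2 fold change ± SE (edgeR) of NZB against NZW (left) and of NZBWF1 against the parental log mean (right) for 12 pairings of gene and class; red points have an adjusted p under 0.05. *Ear1*, *Ear2*, and *Rnase6* in monocyte-like cells lie left of 0 in the left panel, as do *Ear1* and *Ear2* in neutrophil-like cells, and only *Ear2* in neutrophil-like and *Rnase6* in monocyte-like cells are red in the right panel.

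Across all classes, 4 of the 7 genes passed the filter on low counts in at least 1 class, and *Ear6*, *Ear10*, and *Rnase2b* in 0. These gave 19 tests per comparison over 9 classes. For NZB against NZW, 6 of the 19 were called, all lower in NZB and 1 of them in the mixed conventional-dendritic-cell-like class, beside 9.31% of the 66943 tests of all genes in 13 classes. For NZBWF1 against NZB, 5 were called, all higher, beside 3.68%. For NZBWF1 against NZW, 2 were called, both lower, beside 1.13%, and against the parental log mean 2 were called, both higher, beside 0.447%. The 13 classes include some without a member test. All calls but the conventional-dendritic-cell-like one lay in monocyte-like and neutrophil-like cells. In these, 25.1% and 13% of genes were called for NZB against NZW, and 15.4% and 4.32% for NZBWF1 against NZB. The shares were 1.27% and 1.29% for NZBWF1 against NZW, and 1.53% and 0.372% against the parental log mean. The calls of NZB against NZW and of NZBWF1 against NZB include *Ear1* and *Ear2* in neutrophil-like cells, on 17 and 27 NZB UMIs. Those against the parental log mean include *Ear2* there. These calls rest on low NZB counts and are no measured sizes. Tests of a gene in several classes share mice, and all 4 comparisons share strains, so these counts are not independent of each other. A gene that passes the filter through the strain in which it is high had a better chance to be called, so these shares are not set against each other by a test.

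Other genes of the superfamily were mostly silent here. Of 17 further genes listed, 13 are in the count table and 1 was tested in monocyte-like cells. That gene, *Rnase4*, an RNase whose gene shares a start region with *Ang*, starts 32831 bases from *Rnase6*. It was lower in NZB than in NZW by -1.17 ± 0.26 (adjusted p = 0.000865) and higher in NZBWF1 than in NZB by 1.20 ± 0.27 (adjusted p = 0.00157, edgeR), in the direction of *Rnase6*, where 25.1% and 15.4% of all genes were called. Its highest mean level was in plasmacytoid-dendritic-cell-like cells, 68.7 CPM, compared with 22.1 in monocyte-like cells.

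Of 7 partners of ribonucleases, 5 were tested in monocyte-like cells. *Rnh1*, the inhibitor, was higher in NZB than in NZW by 0.74 ± 0.10 (adjusted p = 2.19e-07, edgeR). It was lower in NZBWF1 than in NZB by -0.54 ± 0.10 (adjusted p = 0.00013), where 15.4% of all genes were called. A link to the levels of *Ear1* and *Ear2* was not tested. The median log2 fold change of the 5 was 0.22 for NZB against NZW, compared with -0.01 over all genes tested, and 1 of 5 was called, beside 25.1% of all genes.

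Of 10 eosinophil genes, 1 was tested in monocyte-like cells. This was *Cebpe*, a C/EBP factor of granulocyte maturation, lower in NZB than in NZW by -0.48 ± 0.18 (adjusted p = 0.0381). Of 6 nonclassical monocyte genes, 3 were tested in monocyte-like cells, and 3 were lower in NZB than in NZW, where 25.1% of all genes were called: *Adgre4*, an adhesion receptor, by -1.73 ± 0.33, *Nr4a1*, the nuclear receptor that nonclassical monocytes need, by -1.55 ± 0.48, and *Spn*, the sialophorin CD43, by -0.78 ± 0.12 (adjusted p = 0.000156, 0.0149, and 8.71e-06). These 6 genes are also the markers that named the nonclassical-monocyte-like class. Their levels in monocyte-like cells therefore depend on where the clusters were cut. The list did not go 1 way in every class. *Spn* was also lower in NZB in neutrophil-like (-0.56 ± 0.14) and plasmacytoid-dendritic-cell-like cells (-0.58 ± 0.19, adjusted p = 0.00862 and 0.0496), and *Cd300e*, a receptor of nonclassical monocytes, was higher in NZB in nonclassical-monocyte-like cells by 1.37 ± 0.39 (adjusted p = 0.033). The part of the stage of the monocytes in the *Ear1* and *Ear2* levels was not tested, and within each of the 4 clusters the order of the strains was the same.

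Genes that start within 500 kb of a member were looked at as neighbours. Of 99, 15 were tested in monocyte-like cells, and 7 of them were called for NZB against NZW, beside 25.1% of all genes tested in this class. *Pnp*, purine nucleoside phosphorylase, *Hnrnpc*, and *Tox4* were higher in NZB, by 0.46 ± 0.10, 0.31 ± 0.10, and 0.46 ± 0.16. *Rpgrip1*, *Tep1*, *Ttc5*, and *Rnase4* were lower, by -2.44 ± 0.31, -0.71 ± 0.16, -0.50 ± 0.17, and -1.17 ± 0.26. The median of the 15 was -0.000737, compared with -0.0108 over all genes. In neutrophil-like cells 10 were tested, with 1 higher (*Hnrnpc*) and 1 lower (*Rpgrip1*), beside 13% of all genes called there.

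Over the 11 classes with at least 10 cells in every mouse, the genes most like each member in mean level were found by Pearson's r of log2(CPM + 10). *Ear1* was closest to *Ear2* (0.993), and had a value of 0.97 with *Klra2*. *Ear2* had a value of 0.979 with *Tgfbi*. *Rnase2a* was closest to *Id1* (0.913), *Atp11a* (0.871), and *Itga1* (0.84), and *Rnase6* to *Sik1* (0.968), *Uvrag* (0.961), and *Plekhm3* (0.951). The points are classes of the same 9 mice, and *Ear1* and *Ear2* share sequence, so these values are a description of the profiles.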

How the data were processed

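The authors made the deposited values with bcl2fastq 2.20 and Cell Ranger 3.1.0, with mm10 as the build in the submitters' processing notes. The deposited UMI counts are whole numbers per gene and barcode, which the authors merged over the 9 libraries. Of any thinning to equal depth at this merge, the sources used here say nothing. The mm10 sequence comes from another mouse strain, and reads of copies that match several places are not counted, so family counts can be low. Of the 31053 gene identifiers, 30934 are in GENCODE vM21. Barcodes were assigned to mice by their number, read in the order of the libraries list, and no source states this order. Columns left unused numbered 0, and 557 barcode sequences occurred in more than 1 library.

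Barcodes were kept with at least 1000 UMIs, 500 genes, and at most 10% mitochondrial UMIs. Simulated doublets were used to remove 0.8% per 1000 barcodes. Leiden clusters (resolution 2, 88 clusters, leidenalg 0.10.2) were named from fixed markers. The RNase family and 413 genes that differed between strains were left out of clustering.

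UMIs were summed per class and mouse (at least 10 cells) and tested with edgeR 4.0.16 in R 4.3.3 (TMM, filterByExpr, robust quasi-likelihood, Benjamini-Hochberg over all genes of a class, threshold 0.05), with 1 fit of the 3 strains. The hybrid was set against -0.5 and -0.5 of the parents. The SE was derived from the log2 fold change and its F statistic, and intervals reach 1.96 SE to either side. Tests of single values were two-sided exact permutations of mice, and ratios of rare UMIs have exact 95% binomial intervals. On simulated counts, the monocyte fit recovered 76% of 2-fold and 96% of 4-fold changes, with 8.99% of its calls unchanged genes. The neutrophil fit recovered 71% and 94%, and the fit of monocyte-like against plasmacytoid-dendritic-cell-like cells 26% and 71%. Each simulation changed 100 genes per fold and gave all others equal means in the strains. In the real monocyte comparison of NZB against NZW, 25.1% of genes were called. The simulation of 2 classes gave both the same means and held no effect of the mouse. These rates may therefore not hold for the real data.

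The members and lists were chosen with earlier results of these data known. Named are all members, called genes of the lists, and the 3 genes most like each member, apart from items that are not reported here. The fit of 2 classes, the parental mean on a linear scale, and the split by cluster or by *Mki67* and *Top2a* were added after seeing the data. Alternatives covered the count filter, DESeq2 1.42.0, the block, each mouse left out, free RNA, clusters, classes, doublets, quality limits, and the summed family. Replicates are separate mice, and no batch label was found. The replicate numbers were not taken as pairs, because no label ties them to a shared litter, batch, or day and not every same-numbered correlation was above 0.1.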

Additional observations from a re-analysis of the deposited data

Results flagged for a closer look

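*Rnase6* differed between strains by class. The NZB against NZW log2 fold change was lower in monocyte-like than in plasmacytoid-dendritic-cell-like cells by -1.95 ± 0.16, and the difference of the hybrid from the parental log mean was higher by 0.69 ± 0.13 (adjusted p = 3.30e-23 and 0.000375, edgeR, 9 mice). Both were picked out because the test of the difference between the classes itself passed. The NZB monocyte-like level in them lay near that of NZB B-cell-like and T-cell-like cells. *Ear2* was picked out for the same reason between monocyte-like and neutrophil-like cells, at 1.85 ± 0.26 for NZB against NZW and -1.39 ± 0.19 for the hybrid (adjusted p = 2.68e-05 and 0.000145). The *Rnase6* call for the hybrid was lost in 6 alternatives, at 0.335 with at least 2000 UMIs, and both *Ear2* calls were lost at that depth, at 1.19 and -0.66. *Ear2* reached the test in neutrophil-like cells through NZW and NZBWF1, and its values rest on 27 NZB UMIs that were not separated from background, so neither is read as a measured difference between the classes. The pairs of classes were chosen after seeing the levels, and their cause was not tested.

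*Ear6* was found outside the cells analysed. In the eosinophil-gated barcodes that the limits or the removal of doublets had set aside, it had 4 UMIs, all in the barcode of NZW replicate 2 with 68 UMIs of *Prg2*. No library serves as a control for it.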

How the results depend on the processing

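With 40 fold changes recomputed, 658 values kept their direction and side of the threshold, 28 fell below it, 20 passed it, and 16 changed sign. Called tests of NZBWF1 against the parental log mean fell from 2 to 1 with DESeq2, with the per-cell marker gate, and with at least 2000 UMIs and 1000 genes, and lay between 1 and 2 with 1 mouse left out. For NZBWF1 against NZW they lay between 1 and 3, for NZBWF1 against NZB between 5 and 7, and for NZB against NZW between 5 and 9. With the replicate block, counts were 2, 2, 7, and 7 against 2, 2, 5, and 6 without it. The block gave 0.48 for *Rnase6* in monocyte-like cells against the parental log mean, which was no longer called, and 0.92 for *Ear1* in neutrophil-like cells, now called. In neutrophil-like cells *Rnase2a* was called under it at -0.96 for NZB against NZW and 1.17 for NZBWF1 against NZB. Deviations of same-numbered mice correlated at 0.0184 to 0.276 there, 6 of 9 over 0.1, compared with -0.278 to 0.0848 for other pairs, and at -0.0328 to 0.0488 in monocyte-like cells, 0 of 9 over 0.1.

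The 16 changes of sign concern 5 values. Against the parental log mean in monocyte-like cells, *Ear1* lay between -0.0757 and 0.116 with 1 mouse left out, below 0 without NZW replicate 3 or NZBWF1 replicate 3, and became -0.0410 without removal of doublets, -0.0373 with at least 2000 UMIs, and -0.0171 as the summed family. *Ear2* lay between -0.16 and 0.15 with 1 mouse left out, below 0 without NZB replicates 2 or 3, NZW replicate 3, or NZBWF1 replicate 1, and became -0.0459 without removal of doublets, -0.00087 with at least 2000 UMIs, -0.0126 with at most 5% mitochondrial UMIs, and -0.0171 as the summed family. *Rnase6* for NZB against NZW became 0.38 in conventional-dendritic-cell-like cells under the marker gate and -0.0081 in plasmacytoid-dendritic-cell-like cells with at least 2000 UMIs, where the hybrid became 0.15. Without thinning, shares of monocyte-like cells with *Ear2* were 41.0%, 56%, and 44.4% in NZB, NZW, and NZBWF1. The causes were not tested. Few UMIs limit what can be read of *Ear6*, *Ear10*, and *Rnase2b*, and few cells limit the conventional-dendritic-cell-like class. *Ear1* and *Ear2* in NZB neutrophil-like cells rest on 17 and 27 UMIs.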
